A study of Mus musculus with 8 samples.

Results

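H3K27me3 was read at 3866 autosomal regions that were shorter than 50 kb and held at least 1 protein-coding gene start, out of 13585 regions in the whole table. A region was taken as a member when it lay on chromosomes 1 to 19, when its length was under 50 kb, and when the start of a protein-coding gene of GENCODE M21 (the gene's first base on the plus strand, its last base on the minus strand) fell between its ends on GRCm38. The rule itself used no measured level. The regions are peaks that the authors called on these H3K27me3 libraries, then widened and joined, so their presence and length depend on the mark. The regions came from a chromatin immunoprecipitation sequencing (ChIP-seq) experiment in primary neural stem cells (NSCs) taken from the cortex of female C57BL/6J mouse embryos and kept for few passages. Endogenous Smchd1 carried a GFP tag in all cells, WT cells had otherwise normal Smchd1, and MommeD43 cells were homozygous for a CRISPR-made copy of the MommeD43 missense variant. Each genotype was represented by 3 H3K27me3 libraries from separate cell lines and by 1 whole cell extract library, and the question was whether MommeD43 alters where H3K27me3 lies. Values were given as 1 mean per genotype, which the authors had taken over the 3 libraries, so no value has a replicate error, no p-value is given, and every difference compares the pooled libraries.

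H3K27me3 is the trimethylated form of lysine 27 of histone H3, written by Polycomb repressive complex 2 and read by Polycomb repressive complex 1. In mammalian cells it is found above all at CpG islands, the CpG-rich stretches that cover many promoters, where genes of other lineages or stages are kept silent. Long domains cover clusters of developmental regulators, and narrower domains are found at single promoters. SMCHD1, the protein altered by MommeD43, is a noncanonical SMC protein needed for silencing on the inactive X and at some autosomal clusters.

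The bases just before 3 gene starts are shown because they belong to the member of highest H3K27me3 density and to the members whose MommeD43 value stood furthest above and furthest below WT. Each runs 5′ to 3′ for 250 bases up to the base before the gene start, in GRCm38.p6, and holds no annotated exon. CpG dinucleotides are in capitals.
Hmx3 upstream window, chr7:131542617-131542866, plus strand: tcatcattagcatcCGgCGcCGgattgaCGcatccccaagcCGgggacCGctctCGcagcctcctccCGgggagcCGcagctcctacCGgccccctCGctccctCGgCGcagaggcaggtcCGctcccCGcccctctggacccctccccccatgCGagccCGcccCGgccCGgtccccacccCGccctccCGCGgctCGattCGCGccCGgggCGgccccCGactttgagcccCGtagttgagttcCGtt
Ajap1 upstream window, chr4:153482812-153483061, minus strand: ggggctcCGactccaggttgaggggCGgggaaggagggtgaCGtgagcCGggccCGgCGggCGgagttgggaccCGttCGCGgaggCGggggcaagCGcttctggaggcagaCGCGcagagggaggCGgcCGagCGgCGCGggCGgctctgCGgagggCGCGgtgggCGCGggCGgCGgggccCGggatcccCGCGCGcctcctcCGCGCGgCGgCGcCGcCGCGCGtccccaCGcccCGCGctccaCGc
Dach1 upstream window, chr14:98169766-98170015, minus strand: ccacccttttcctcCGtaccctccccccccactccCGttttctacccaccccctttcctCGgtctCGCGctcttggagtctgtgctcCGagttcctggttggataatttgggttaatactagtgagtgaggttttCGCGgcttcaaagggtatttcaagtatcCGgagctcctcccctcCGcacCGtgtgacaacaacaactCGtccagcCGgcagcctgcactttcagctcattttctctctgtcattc
The Hmx3 window held 30 CpGs at a GC content of 74.4%, with a CpG content of 0.94 of that expected from its C and G content. The Ajap1 window was denser, with 44 CpGs, a GC content of 82.0% and a ratio of 1.08. The Dach1 window held 13 CpGs at 54.8% GC, with a ratio of 0.76, so the member furthest below WT had the least CpG-rich of the 3 windows.

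The deposited values are log2 read counts per region, scaled by the authors to library size. Whole reads could be recovered from the low values, and a WT read counted as 3.27 normalized counts and a MommeD43 read as 2.63. Behind the median member lay 166 reads per WT library and 221 reads per MommeD43 library as geometric means, with quartiles of 82.1 and 356 in WT and of 107 and 506 in MommeD43. The thinnest member value rested on 12.2 reads, and 3739 members reached 50 reads per library in WT, MommeD43 or both. Counting alone puts an error of at least 0.09 (median, log2 scale) on a member's difference. This covers counting error only and leaves out all variation between cell lines.

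Members were the most frequent way for an autosomal gene start to lie in a marked region. Of 20807 autosomal protein-coding starts, 4683 (22.5%) lay in members, 1340 (6.44%) in autosomal regions of 50 kb or more, and 14784 (71.1%) in no region. Members had a median length of 12800 bp and ranged from 5300 to 49850 bp. Together they spanned 63.4 Mb, 24.4% of all bases covered by the table, and took 22.0% of all WT counts and 21.9% of all MommeD43 counts after the authors' scaling. Their density, the normalized count divided by the length, had a median of 40.1 per kb in WT and 43.1 per kb in MommeD43. That was above regions in gene bodies without a start, at 33.5 and 35.2 per kb, and above intergenic regions, at 32.9 and 32.2 per kb, and below regions of 50 kb or more, at 87.4 and 103 per kb. The gene body and intergenic regions were shorter than members, with median lengths of 9050 and 8000 bp. Members under 10 kb had densities of 29.5 per kb in WT and 31.3 per kb in MommeD43. The classes were not compared at like length. The authors had widened each peak by 2.5 kb on both sides, so short regions carry more flank, and density followed length among members with a Spearman's rho of 0.73 in WT and 0.71 in MommeD43 over the 3866 members.

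The limit of 50 kb cuts through a continuum. The longest members, both of 49850 bp, were the Lman1 region (chr18:66000651-66050500), with values of 11.50 in WT and 11.98 in MommeD43, and the Smarcb1 region (chr10:75920451-75970300), which holds 6 starts and had values of 12.64 and 12.71. The shortest regions beyond the limit, both of 50000 bp, held Matn1, with values of 11.03 and 11.33, and Hgfac with Dok7, with values of 11.43 and 11.63.

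Most members served a single gene. A single start lay in 3242 members (83.9%), 2 starts in 494 (12.8%) and 3 or more in 130 (3.36%), with up to 8 starts in 1 region on chromosome 8 that runs from B3gnt9 to E2f4. Density was higher where starts were many. The median was 38.8 per kb in WT and 41.5 per kb in MommeD43 with 1 start, and 63.8 and 77.7 per kb with 3 or more, in regions whose median length was 12050 bp and 30125 bp. Among members with 2 starts, 272 (55.1%) held a divergent pair that pointed away from each other, 80 a convergent pair and 142 a pair on the same strand. In 81 of the divergent pairs the starts lay under 1 kb apart, close enough to share a promoter. A start of an annotated noncoding gene lay in 19.99% of members, against 7.57% of gene body regions without a coding start and 10.4% of intergenic regions. It lay in 56.1% of autosomal regions of 50 kb or more. Median lengths were 12800, 9050, 8000 and 76025 bp in this order, and the shares were not compared at like length.

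Gene starts were not spread evenly along the members. In the direction of transcription, the median start lay 7152 bp from the upstream end and 5298 bp from the downstream end of its region. Starts within 2.5 kb of the downstream end numbered 1343 (28.7%), against 540 (11.5%) within 2.5 kb of the upstream end. Among members with a single start, 913 had it within 2.5 kb of the downstream end and 369 within 2.5 kb of the upstream end. The outer 2.5 kb of a region is flank that the authors added to a peak, and 1430 members (37.0%) held starts only there. The other 2436 members (63.0%) had a start at least 2.5 kb inside. These had a median length of 16175 bp and densities of 46.3 per kb in WT and 52.2 per kb in MommeD43, whereas members with starts only in the flank had a median length of 8750 bp and densities of 33.3 and 34.0 per kb. A whole gene fitted inside its member in 1050 cases (22.4% of starts).

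**Figure D1:**
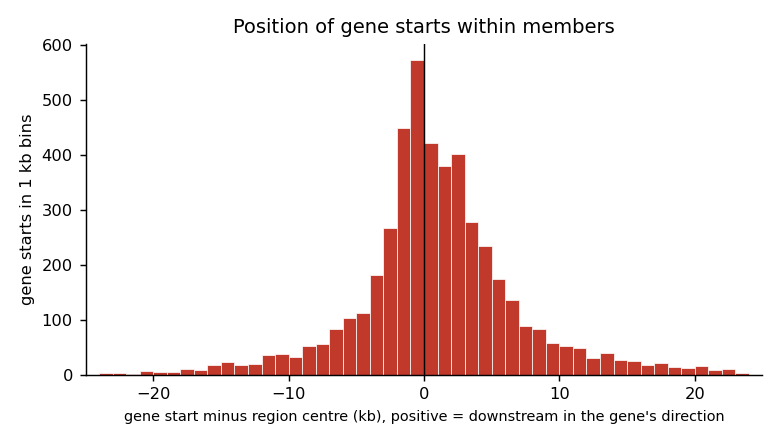
Number of gene starts (vertical axis, 1 kb bins) by their distance from the centre of the member that holds them (horizontal axis, kb), with positive distances downstream in the gene's direction, over 4683 starts. The tallest bin lies just upstream of the centre, and the downstream side holds the broader shoulder: 2580 starts (55.1%) were nearer the downstream end.

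CpG-rich starts were more frequent in members than over all genes. Over the window from 250 bases before to 50 bases after a start, 44.1% of member starts were CpG-rich (a GC content of at least 55% and a CpG content of at least 0.6 of that expected), with a 95% Wilson interval over starts of 42.7% to 45.5%. The share was 37.7% over all autosomal starts, 41.9% in regions of 50 kb or more and 35.3% among starts in no region. Starts in the outer 2.5 kb were CpG-rich more often, at 51.8%, than those further inside, at 38.9%, which was close to the share over all autosomal starts. The letters GGGCGG, searched on both strands of the same window, were found at 53.9% of member starts and at 43.7% of all autosomal starts. TATAAA was found at 8.48% of member starts against 12.7% of all, and CCAAT at 34.4% against 38.6%. GGGCGG holds a CpG, so its share moves with CpG content. Members with a CpG-rich start differed little from the others in level: their median density was 42.1 per kb in WT and 45.1 per kb in MommeD43, against 38.8 and 41.7 per kb.

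Members were alike in the genotypes, with a Pearson's r of 0.953 between the log2 values and a Spearman's rho of 0.81 between the densities over 3866 regions, which share libraries and are not replicates. With the authors' scaling the median difference, MommeD43 minus WT, was 0.15 on the log2 scale, with quartiles of -0.10 and 0.40. The exact binomial 95% interval of this median over regions was 0.14 to 0.17. MommeD43 was higher in 2563 members (66.3%), against 6754 of 11707 autosomal regions (57.7%). In bulk cells, more marked cells and more mark per cell cannot be told apart, and the authors hold ChIP-seq poorly suited to comparing levels of a mark. The direction of the median depended on the scaling: setting the total of all regions equal lowers every difference by 0.24 and puts the members' median at -0.09. Differences between sets of regions are free of such a shift. Members stood 0.14 above the other autosomal regions under 50 kb, whose parts had medians of 0.08 in gene bodies and -0.04 between genes, and they stood below regions of 50 kb or more, whose median was 0.26.

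Large differences were rare. MommeD43 was higher by at least 1 on the log2 scale, which is a doubling, in 97 members (2.51%), against 2.28% of autosomal regions and 6.09% of all regions. It was lower by at least 1 in 60 members (1.55%), against 2.93% of autosomal regions and 3.03% of all regions. With the GC trend removed, 64 members (1.66%) were higher and 22 (0.569%) lower by at least 1, against 1.84% and 0.683% of autosomal regions. Without removal of the trend, 3.73% of regions in gene bodies, 3.99% between genes and 0.847% of those of 50 kb or more were lower by at least 1. With it removed, these were 29 of 3026, 26 of 4107 and 3 of 708. After scaling to the total of all regions, 49 members (1.27%) were higher and 134 (3.47%) lower by at least 1, against 1.18% and 5.7% of autosomal regions.

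**Figure D2:**
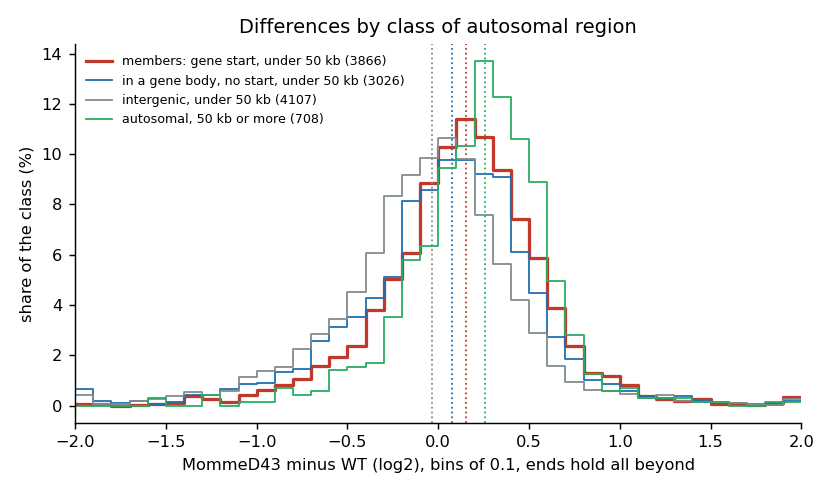
Distribution of the difference MommeD43 minus WT (horizontal axis, log2, bins of 0.1, with all values beyond 2 in the end bins) as a share of each class of autosomal region (vertical axis, %), and dotted lines at the medians. Members, with a median of 0.15, lie between regions of gene bodies (0.08) and regions of 50 kb or more (0.26), and the classes overlap widely.

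Base composition moved with the difference. Over members the Spearman's rho of the difference with the GC content of the region was 0.56, and the points share libraries and depth. Members had a median GC content of 47.4%, gene body regions without a start 46.6% and intergenic regions 44.95%. Among members of the lowest GC bin, of 31.5% to 41.0%, the median difference was -0.69, and in the highest bin, of 51.2% to 63.4%, it was 0.42. Other autosomal regions under 50 kb had medians of -0.62 and 0.34 in these bins. Within bins the members' median was between 0.07 below and 0.08 above that of the others, with a median over bins of 0.03 in place of the 0.14 without bins. The intervals of members and others overlapped in every bin but the highest. With the trend with mean value removed instead, the median over bins was -0.01, so the direction of this small remainder was not kept. What part GC content has in the members' higher median was not tested.

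**Figure D3:**
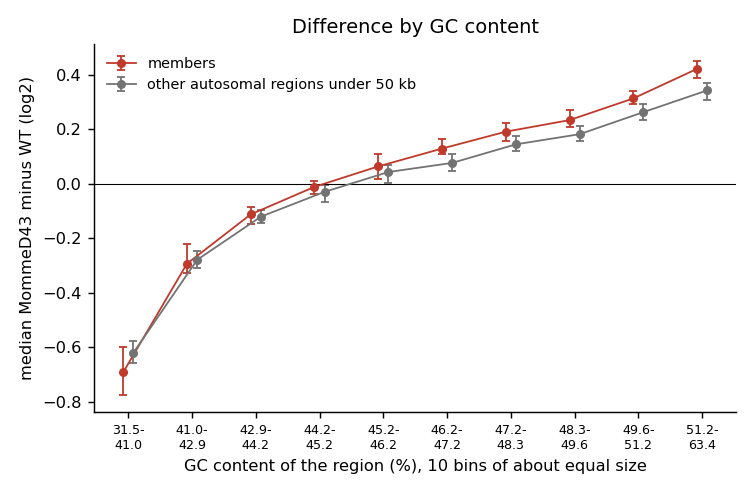
Median difference MommeD43 minus WT (vertical axis, log2) in 10 bins of GC content (horizontal axis, %), for members and for other autosomal regions under 50 kb, with bars for the exact binomial 95% interval of each median over regions. Both lines climb together, from -0.69 and -0.62 in the lowest bin to 0.42 and 0.34 in the highest.

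The GC content of members with large differences was on the same sides. The 97 members that were higher by at least 1 had a median GC content of 49.9%, and the 60 that were lower had a median of 40.1%. With the GC trend of autosomal regions removed, 50 of the 97 were still higher and 16 of the 60 still lower by at least 1. Median densities were 26.1 per kb in WT and 67.1 per kb in MommeD43 for the 97, and 38.0 and 16.3 per kb for the 60. Both were chosen by the difference between these values, so the densities only describe the choice. Starts at least 2.5 kb inside the region were held by 87 of the 97 (89.7%) and by 31 of the 60 (51.7%), against 63.0% of all members.

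The position of the start also went with the difference. Members with a start at least 2.5 kb inside had a median of 0.22, and those with starts only in the outer flank had a median of 0.03. Their GC contents were 47.7% and 46.7%, and with the GC trend removed the medians were 0.05 and -0.05. Members with 3 or more starts had a median of 0.36, against 0.13 with 1 start, at GC contents of 50.3% and 47.2%, and of 0.11 and 0.01 with the GC trend removed. By length, the median was 0.08 for members under 10 kb and 0.23 for those of 30 kb or more, at GC contents of 46.9% and 48.5%. Removing the GC trend gave -0.03 and 0.08. A CpG-rich start went with no such gap: the medians were 0.15 with one and 0.16 without, and -0.007 and 0.03 with the GC trend removed.

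Members on different chromosomes differed modestly. The lowest chromosome median was 0.01, on chromosome 12, and the highest was 0.33, on chromosome 17. Removing the GC trend narrowed the range to between -0.05 and 0.08, and the same chromosomes stood at the ends. Neighbouring members resembled each other. For the 1226 adjacent pairs under 100 kb apart, the Spearman's rho of their GC-adjusted differences was 0.24, and it was 0.17 at 100 to 300 kb (1017 pairs), 0.13 at 300 to 1000 kb (977 pairs) and 0.01 beyond (627 pairs).

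Among the 8 densest members, the 7 described here each held the start of a transcription factor gene. Members were ranked, here and within lists, by the geometric mean of the densities in both genotypes. The first was chr7:131526501-131571250, with the homeobox genes Hmx3 and Hmx2 and with Bub3, a spindle checkpoint gene, at 520.0 normalized counts per kb in WT and 684 per kb in MommeD43. Its log2 values were 14.51 and 14.90, and the CpG-rich Hmx3 window shown above lies within it. Lhx9, a LIM homeobox gene (chr1:138809451-138858250), followed at 457 and 449 per kb. Sp9, a zinc finger factor of interneurons (chr2:73254501-73285450), had 386 and 523 per kb. Onecut2 stood at 383 and 496 per kb, and Pou4f1, a POU factor of sensory neurons, at 406 and 453 per kb. Prdm8, of the PRDM zinc finger family, had 257 and 396 per kb, and Pou4f2, a POU factor of retinal ganglion cells, 300.02 and 329 per kb. These 7 regions were over 30 kb long, and their differences ran from -0.02 at Lhx9 to 0.62 at Prdm8.

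**Figure D4:**
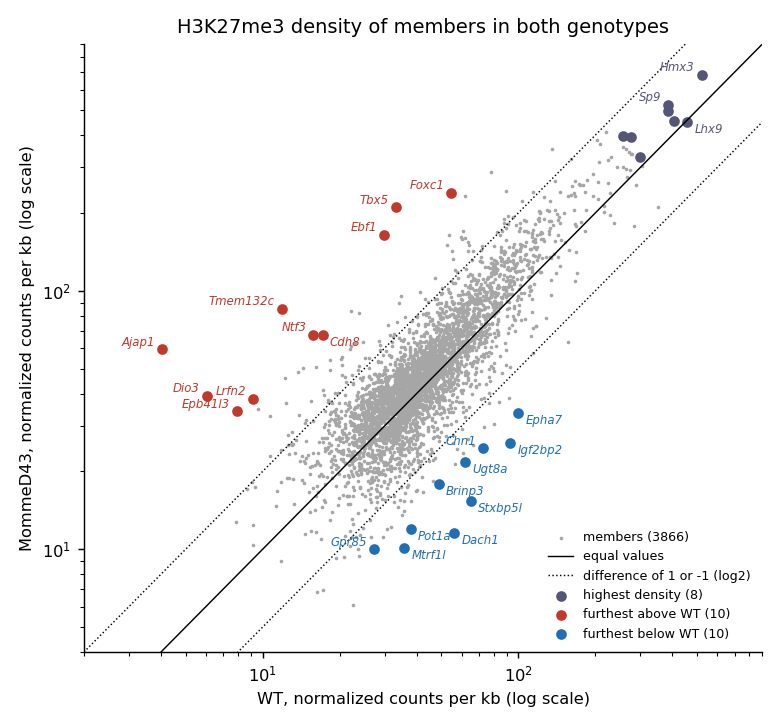
H3K27me3 density of each member in WT (horizontal axis) and MommeD43 (vertical axis), in normalized counts per kb on log scales, with the 8 densest members and the 10 furthest above and below WT in colour. Most of the 3866 members lie between the dotted lines at differences of 1 and -1, Ajap1 stands apart at 4.06 per kb in WT and 59.3 per kb in MommeD43, and the densest members lie near or above the line of equal values.

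The 10 members furthest above WT were chosen by the difference itself, so a low WT value is part of the choice, and Ajap1, Dio3, Epb41l3 and Lrfn2 reached 50 reads per library in MommeD43 alone. Ajap1, which encodes a protein of adherens junctions, went from 4.06 per kb in WT to 59.3 per kb in MommeD43 at chr4:153475551-153487450, the region of the most CpG-rich window shown above. Only 14.8 reads per library lay behind the WT value, and the difference was 3.87 with a counting error of 0.22. At Tmem132c (chr5:127231701-127249000) the density was 11.9 per kb in WT and 85.3 per kb in MommeD43, a difference of 2.84 ± 0.11 (counting error). Dio3, an imprinted gene whose enzyme inactivates thyroid hormone (chr12:110273301-110285800), had 6.06 and 39.1 per kb, a difference of 2.69 ± 0.18 (counting error).

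Tbx5, a T-box factor of heart and forelimb (chr5:119817501-119855950), had 33.2 per kb in WT and 211 per kb in MommeD43, over 390 and 3073 reads per library. Ebf1, a factor of B lymphocytes and neurons (chr11:44604801-44629600), had 29.8 and 165 per kb. Foxc1, a forkhead factor of mesenchyme (chr13:31790751-31825900), had 54.7 and 239 per kb. These differences were 2.67, 2.46 and 2.13, each with a counting error of at most 0.06, and in MommeD43 these regions had densities above 3 times the members' median. Epb41l3, a cytoskeletal gene, differed by 2.11 and Lrfn2, a synaptic adhesion gene, by 2.05, with 19.4 and 21.2 reads per library in WT and counting errors of 0.21 and 0.20. Ntf3, which encodes neurotrophin-3, differed by 2.10 and Cdh8, a cadherin gene, by 1.97, with a counting error of 0.11 each. Of the 10, Epb41l3 alone had its start in the outer flank. With the GC trend removed the 10 differences ran from 1.65 at Lrfn2 to 3.41 at Ajap1.

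The 10 members furthest below WT were likewise chosen by the difference, and Mtrf1l and Gpr85 reached 50 reads per library in WT alone. Dach1, a transcriptional cofactor gene (chr14:98155101-98178250), had 56.0 per kb in WT and 11.5 per kb in MommeD43, a difference of -2.28 with a counting error of 0.09. Stxbp5l, a gene of vesicle release (chr16:37359201-37402450), had 65.4 and 15.4 per kb, a difference of -2.09. Igf2bp2, which encodes an RNA-binding protein (chr16:22150401-22171300), had 93.0 and 25.8 per kb, a difference of -1.85. Mtrf1l, a gene of mitochondrial translation, differed by -1.83, and Pot1a, a telomere gene, by -1.67. Epha7, an ephrin receptor gene, and Chn1 differed by -1.57 each. Ugt8a, which acts in myelin lipid synthesis, differed by -1.51, and Gpr85 and Brinp3 by -1.45 each. Behind the MommeD43 values of Mtrf1l and Gpr85 lay 29.4 and 32.6 reads per library, and the counting error of both differences was 0.18. The starts of Mtrf1l, Pot1a, Chn1 and Gpr85 lay in the outer flank. The GC content of the Dach1 region was 37.9%, that of Stxbp5l 36.4% and that of Igf2bp2 44.7%. With the GC trend removed the differences were -1.48 at Dach1, -1.05 at Stxbp5l and -1.82 at Igf2bp2, and Pot1a, Epha7, Ugt8a, Gpr85 and Brinp3 no longer reached -1, at between -0.94 and -0.59.

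One stretch of chromosome 5 had neighbouring members with large differences, and was picked after the values were seen. Gsx2, a homeobox factor of the ventral forebrain (chr5:75060501-75097450), had 77.9 per kb in WT and 288 per kb in MommeD43, a difference of 1.89. Next to it, 39550 bp away, Pdgfra, a receptor gene of oligodendrocyte precursors, had 61.6 and 233 per kb, a difference of 1.92. The next member along, at Kit, differed by 0.39, and the one after, at Kdr, by 1.11. On the outer sides Rasl11b differed by 0.09 and Nmu by 0.40. Differences of more than 1 were thus not continuous along the stretch.

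Gene families were compared by where their starts lay and by the difference of their members, set against 22.5% of all autosomal starts in members and a median of 0.15 over all members. Of 139 starts of homeobox genes outside the Hox clusters, 42 (30.2%) lay in members, 80 (57.6%) in regions of 50 kb or more and 17 in none. Their member regions had a median density of 95.8 per kb in WT and 158 per kb in MommeD43, and their median difference stood 0.27 above that of all members, or 0.25 with the GC trend and 0.15 with the trend with mean value removed. Of the 41 regions 36 were higher in MommeD43 with the authors' scaling and 5 were higher by at least 1: Gsx2, Meox2 by 1.26, Pax6 by 1.18, Hlx by 1.08 and Prox1 by 1.01. Over all members 66.3% were higher and 2.51% higher by at least 1. Pax6, Hlx and Prox1 stood at 0.84, 0.91 and 0.80 with the GC trend removed, and at 0.94, 0.83 and 0.77 after scaling to the total of all regions. T-box and Gata genes placed 7 of 21 starts in members and 11 in longer regions. Their members included Tbx18, at 278 and 337 per kb, Gata6, at 271 and 345 per kb, and T, the mesoderm factor Brachyury, at 135 and 353 per kb with a difference of 1.39.

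Forkhead genes had 12 of 41 starts in members, with Foxd4 densest at 264 per kb in WT and 296 per kb in MommeD43, and with Foxc1 and Foxp4, at 1.78, higher by at least 1, but their median lay 0.04 above that of all members and 0.07 below it with the trend with mean value removed. For bHLH genes the count was 21 of 57, with the neuronal factors Neurod1, at 266 and 275 per kb, Nhlh2, at 229 and 239 per kb, and Atoh1, at 173 and 259 per kb. None of them differed by 1 or more, which 2.51% of all members did above WT and 1.55% below it, so a count of 0 is near that background. Their median lay 0.07 above that of all members, or 0.07 below it with the trend with mean value removed. Zinc finger regulators had 26 of 67 starts in members, led by Prdm8, Osr1 and Prdm14, and their median stood 0.29 above that of all members, 0.23 above it with the GC trend removed and 0.24 above it with the trend with mean value removed. Nuclear receptors had 19 of 41 starts in members, 4 in longer regions and 18 in none, with Nr5a2 higher by 1.44, Esrrg by 1.45 and Esrra by 1.10, though the starts of Nr5a2 and Esrra lay in the outer flank and Esrra, which shares its region with 4 other starts, stood at 0.68 with the GC trend removed. Of 18 Sox starts 4 lay in members, at Sox18, Sox17, Sox10 and Sox30, and 11 in no region.

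Of 74 starts of Wnt, Fgf, Bmp and Hedgehog ligands, 39 (52.7%) lay in members and 18 (24.3%) in regions of 50 kb or more. The list was broader than its name. Its members also held Tgfa, Tgfb2, Nodal, Lefty1, Lefty2, Inha, Inhba and Inhbb, and Bmp1, which encodes a protease. The counts, shares and medians given for the ligands include these genes. Shh, the Hedgehog ligand of the ventral neural tube, was the densest at 225 per kb in WT and 321 per kb in MommeD43, followed by Gdf7, at 207 and 314 per kb, and Gdf6, at 182 and 240 per kb. Bmp4 differed by 1.62 and Wnt7b by 1.37, which became 1.44 and 0.92 with the GC trend removed. The ligands' median stood 0.27 above that of all members, 0.21 above it with the GC trend removed and 0.20 above it with the trend with mean value removed. Their secreted inhibitors had 14 of 24 starts in members, led by Notum, Grem1 and Chrdl2, with Hhip, an antagonist of Hedgehog ligands, at a difference of -1.06. Receptors of the same ligands had 13 of 35 starts in members at a lower density, 34.6 per kb in WT and 38.1 per kb in MommeD43 against 52.3 and 68.4 per kb for the ligands. Of the 13 receptor starts 7 lay at least 2.5 kb inside, where 59.8% of all member starts lay. Notch ligands and receptors had 3 of 11 starts in members, 3 in longer regions and 5 in none.

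Potassium channel genes placed 55 of 95 starts (57.9%) in members, neuropeptides and their receptors 47 of 80 (58.8%), monoamine and acetylcholine receptors 29 of 52 (55.8%), and glutamate, GABA and glycine receptors 24 of 46 (52.2%). Of the starts of these 4 families, between 8.70% and 16.3% lay in longer regions. The densest potassium channel member was Kcng3, at 139 per kb in WT and 206 per kb in MommeD43, followed by Kcnk4, which shares the region of Esrra, at 103 and 222 per kb, and Kcnj5, at 118 and 145 per kb. Avp and Oxt, which encode vasopressin and oxytocin, share a region of 133 and 223 per kb, the densest of the neuropeptide list. The neuropeptide genes Adcyap1, at 131 and 170.0 per kb, and Cck, at 132 and 166 per kb, came next. Among glutamate, GABA and glycine receptors Grin2b, a subunit of the NMDA receptor, had 107 and 170 per kb, Grm6 90.0 and 131 per kb, and Grik3 63.3 and 155 per kb. Adra2a, an adrenergic receptor, led its list at 142 and 188 per kb, before Chrna3, an acetylcholine receptor subunit, at 125 and 156 per kb, and Hrh3, a histamine receptor, at 113 and 166 per kb. The median of the glutamate, GABA and glycine receptors stood 0.27 above that of all members, and at least 0.21 above it with either trend removed, but its range was wide, from -1.41 at the kainate receptor gene Grik2 to 1.82 at the metabotropic receptor gene Grm7. With the GC trend removed Grik2 stood at -0.85 and Grm7 at 1.77. Reads per library were 39.5 at Grik2 in MommeD43 and 39.9 at Grm7 in WT, and the counting errors were 0.16 and 0.15. Calcium and sodium channels had 15 of 39 starts in members, 6 in longer regions and 18 in none, and a median 0.02 below that of all members.

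Guidance and adhesion genes spread in both directions. Axon guidance genes had 40 of 72 starts (55.6%) in members. Over both genotypes Epha10 was densest, at 114 per kb in WT and 156 per kb in MommeD43. Plxna2, a semaphorin receptor, followed at 134 and 96.4 per kb, above Epha10 in WT alone, and then Sema6b, a semaphorin, at 99.0 and 128 per kb. Their median stood 0.01 above that of all members, or 0.02 below it with the GC trend removed, while single genes ran from -1.57 at Epha7 to 1.92 at Slit3, a ligand of Robo receptors. Cadherins and non-clustered protocadherins had 19 of 36 starts in members, led by Cdh1, at 123 per kb in WT and 168 per kb in MommeD43, and Pcdh8. Within this family Cdh8 differed by 1.97, Pcdh17 by -1.19, or -0.78 with the GC trend removed, and Pcdh10 by -1.15, and the median stood 0.02 below that of all members, or 0.09 above it with the GC trend removed.

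**Figure D5:**
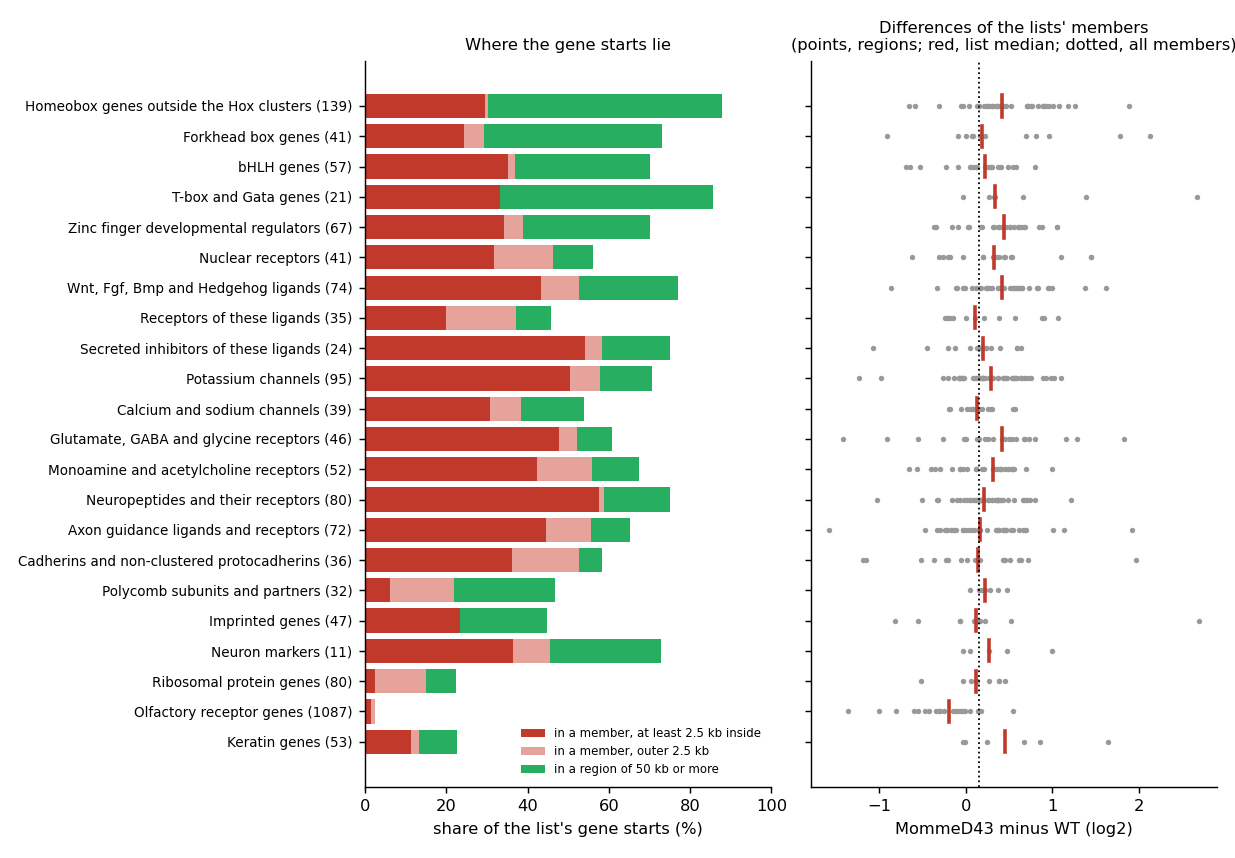
Left, share of each list's autosomal gene starts (horizontal axis, %) that lay in members, at least 2.5 kb inside or in the outer 2.5 kb, and in regions of 50 kb or more, with the number of starts in brackets; right, the difference MommeD43 minus WT (log2) of each member region, with the list median in red and the median of all members dotted, for lists with at least 5 member regions. The neuropeptide list reaches the largest share in members, 58.8%, homeobox genes lie mostly in longer regions, 57.6%, and single regions spread far more than the list medians do.

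The mark is found at silent genes and no RNA was measured here, so markers of cell types are a limited check of the labels. Of 16 NSC marker starts, 10 lay in no region, among them Sox2, Fabp7, Vim and Slc1a3, 2 (Hes1 and Hes5) in regions of 50 kb or more, and 4 in members. Over all autosomal starts 71.1% lay in no region and 22.5% in members, so these counts do not set NSC markers apart and do not test the label. The 4 were Msi1, with 72.0 per kb in WT and 67.9 per kb in MommeD43, Prom1, with 60.3 and 40.1 per kb, Nes, whose start lay in the outer flank, with 43.5 and 63.9 per kb, and Pax6, with 33.4 and 75.6 per kb. The Pax6 difference of 1.18 was 0.84 with the GC trend removed. Neuronal markers had 5 of 11 starts in members, with Neurod1, Tbr1 and Gad1 densest, and Gad1, an enzyme of GABA synthesis, stood at 161 and 322 per kb, a difference of 1.001, or 0.84 with the GC trend removed. Markers of the oligodendrocyte lineage had 3 of 7 starts in members, at Pdgfra, Sox10 and Mbp, and 4 in no region. Endothelial markers had 2 of 5 starts in members and 3 in no region. The 2 were Cldn5 and Kdr, which differed by 1.24 and 1.11, or by 0.95 and 1.06 with the GC trend removed. Kdr stood at 0.87 after scaling to the total of all regions. Over all members 2.51% were higher by at least 1. Microglia and blood markers placed 2 of 6 starts in members, and muscle, liver and germ line markers 1 of 6 each.

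Of 80 ribosomal protein starts, which are active in every cell, 12 (15.0%) lay in members, and 2 of the 12 lay at least 2.5 kb inside. Polycomb genes had 7 of 32 starts in members, with 2 inside, and Bmi1, a subunit of Polycomb repressive complex 1, was densest at 184 per kb in WT and 204 per kb in MommeD43. Imprinted genes had 11 of 47, and Dio3, described above, was among them. Among cyclin-dependent kinase inhibitors, Cdkn2a lay in a dense member, at 289 and 257 per kb, and Cdkn2b beside it at 31.9 and 24.6 per kb. Olfactory receptor genes were nearly absent, with 26 of 1087 starts (2.39%). Their members had a median GC content of 42.9% and a median difference 0.35 below that of all members, or 0.02 above it with the GC trend removed. Vomeronasal receptors had 2 of 326 starts in members and keratins 7 of 53.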

How the data were processed

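H3K27me3 ChIP-seq was done in 3 WT and 3 MommeD43 female NSC lines with antibody C36B11, with 1 whole cell extract library per genotype. The labels describe digestion with micrococcal nuclease and the study's methods shearing, so the fragmentation is uncertain. Per the submitters' processing notes and the study's methods, reads were trimmed with Trim Galore 0.4.4 and aligned with Bowtie2 2.3.4.1 to GRCm38.p6. In SeqMonk, reads were extended, peaks were called per genotype on merged replicates against whole cell extract, widened by 2.5 kb on each side, and joined within 1 kb. The deposited values are log2 read counts per region, scaled by the authors to library size then averaged within a genotype over its 3 libraries. Length and extract were not corrected for. Values of single libraries and of the extracts were not analysed here. Region bounds were taken from the start and end columns. The end in the region's name was smaller in 8582 of 13585 regions, and the values followed the end column's length.

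Reads per library were recovered from the steps of low values. Products of the 3 library counts came within 0.1 of a whole number in 1138 of 1139 WT values and 681 of 684 MommeD43 values under 30000. Counting errors assume Poisson counts spread evenly over the libraries. The scripts were tested on simulated data. Trends with GC content (autosomal regions) and with mean value (all regions) were running medians over 40 bins. The intervals of medians are exact binomial order-statistic intervals over regions, which are not replicates.

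Members, gene lists and comparisons were chosen with earlier results of these data known. Members were named by rule: among those with 50 or more reads per library in WT or MommeD43, the 8 of highest density and the 10 of largest difference in each direction; the 2 longest members and the 2 shortest regions beyond the limit; the 3 densest of each list, of which the text leaves out several; and those holding NSC markers. A member that this rule names by its density is not reported here. List genes named for a difference of 1 or more, for being the lowest or highest of their list, or as examples were chosen after their values were seen. Alternatives were other scalings, trend removal, a pseudocount of 10, a minimum of 50 reads, other definitions of a start and a length under 25 kb. The tools were matplotlib 3.10.9, scipy 1.17.1, pandas 2.3.3, numpy 2.4.6 and Python 3.11.15.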

Additional observations from a re-analysis of the deposited data

How the results depend on the processing

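No paired analysis was possible because the table holds 1 pooled column per genotype, and for the same reason leaving out single replicates was not run. Depth limits differences at members with few reads, and variation between cell lines is unknown throughout.

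The median difference of members, 0.15, was -0.0881 after scaling to the total of all regions, 0.0786 after scaling to the autosomal median, 0.0136 with the GC trend removed and 0.0378 with the trend with mean value removed. It was 0.22 for starts at least 2.5 kb inside and 0.14 under 25 kb. The excess over other autosomal regions under 50 kb, 0.14, was 0.0306 with the GC trend removed, 0.111 with the trend with mean value removed, and 0.21 for starts at least 2.5 kb inside. Within GC bins it was -0.00882 in place of 0.0334 with the trend with mean value removed. The 97 members higher by 1 or more became 49 after scaling to the total and 64 with the GC trend removed. The 60 that were lower became 134 and 22, and 31 for starts at least 2.5 kb inside, which 2436 members held.

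The median density, 41.3 per kb over both genotypes, was 40.1 in WT and 43.1 in MommeD43 alone, 48.7 for starts at least 2.5 kb inside, 40.4 for starts of any transcript and 37.7 under 25 kb. The CpG-rich share of 44.1% was 29.0% at a ratio of 0.75, against 27.3% of all autosomal starts, 46.8% over 500 bases on each side, against 39.6%, 48.1% for starts of any transcript, against 35.8%, and 38.9% for starts at least 2.5 kb inside. The cause of these shifts was not tested.

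Alternatives for named members and lists were chosen after the data were seen. Of 100 values of the 20 members furthest from WT, 33 moved beyond their counting interval. Of 66 list values 7 changed sign, relative to all members: with the trend with mean value removed, forkhead genes, to -0.0693, and bHLH genes, to -0.0674, and with the GC trend removed, axon guidance genes, to -0.0160, cadherins, to 0.0940, imprinted genes, to 0.0177, ribosomal protein genes, to 0.0550, and olfactory receptors, to 0.0154.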

Other observations

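The member with the most starts, chr8:105251301-105299500, holds B3gnt9, Tradd, Fbxl8, Hsf4, Nol3, 4931428F04Rik, Exoc3l and E2f4. It went from 63.4 normalized counts per kb in WT to 142 per kb in MommeD43, a difference of 1.17 with a counting error of 0.03, and of 0.77 with the GC trend removed. It was named after its values were seen.

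With the GC trend removed, other members came to the ends of the ranking. Igf2bp2, Dach1 and Chn1, at -1.42, were then followed by Setbp1, whose value of 10.22 in WT and 8.92 in MommeD43 gave -1.35, and by Fam169a, at 10.66 and 9.40, which gave -1.31. On the other side 4921530L21Rik (chr14:95873601-95885200) stood at 2.26 with the trend removed and at 1.58 without it, in a region of 38.6% GC. Removal of the trend brought 14 members to 1 or more and 6 to -1 or less that had not been there before.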
